A study of Homo sapiens with 6 samples.

Results

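Transcripts of 10 inflammatory cytokine and chemokine genes were followed in A375 cells, a cultured human melanoma line that carries mutant BRAF. The genes were IL1A, IL1B, IL6, LIF, IL11, IL24, CXCL8, CXCL1, CXCL2 and CCL2, taken by gene symbol from a table of counts for 16934 genes, and all 10 had a row in it. The RNA came from cells given Cas9 with a guide RNA (sgRNA) against POLK, in 3 libraries, and from cells given Cas9 with a non-targeting control sgRNA, in 3 libraries. The protein made from POLK is DNA polymerase kappa, which lets replication pass damaged bases at the price of errors. All 6 libraries came from the same line grown in the same medium, with no drug named in the labels. The labels give neither the position that the sgRNA targets nor whether the cells of a group were a pool or 1 clone. Nor do they tie each library to a culture of its own, so every p-value rests on the scatter among these 6 libraries, and that scatter may be technical.

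Cytokines are secreted signalling proteins, and tumour cells as well as leukocytes make them. The interleukin-1 ligands act through a receptor pair that switches on NF-kB, a family of transcription factors which in turn drives many cytokine and chemokine genes. IL-6, LIF and IL-11 signal through the shared receptor chain gp130 to the kinase JAK1 and the transcription factor STAT3. CXC chemokines such as CXCL8 attract neutrophils, CCL2 attracts monocytes, and the messenger RNAs of many of these proteins are short-lived because of AU-rich elements that decay factors recognise.

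The cytokine genes split into a group that rose and a group that fell in cells that received the POLK sgRNA. CCL2 rose by a log2 fold change of 2.67, IL1A by 2.01, IL24 by 1.78, CXCL2 by 1.29 and IL1B by 1.21. IL11 fell by 0.59 on the log2 scale, CXCL1 by 0.48, CXCL8 by 0.44 and LIF by 0.37. IL6 held 2 counts in all, under the minimum of 10 counts, and is given as not measured. Thus 9 of the 10 genes were tested, and in the quasi-likelihood test of edgeR all 9 had an adjusted p under the threshold of 0.05, 5 of them higher and 4 lower. Among all 13930 genes tested, 64.3% passed, 32.8% higher and 31.6% lower, so that a call on its own was common in this comparison. The libraries of the groups did not overlap for 8 of the 9 genes, against 67.7% of all genes tested. The filter on low counts asked for 0.206 CPM (counts scaled to a common library total) in at least 3 libraries. IL1B met that level in 2 POLK sgRNA libraries and 1 control library, CXCL2 in 3 POLK sgRNA and 2 control libraries, and CCL2 in 3 POLK sgRNA and 0 control libraries. These 3 genes would not have been tested on the control libraries' level alone, so the count of members called is a description only.

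**Figure D1:**
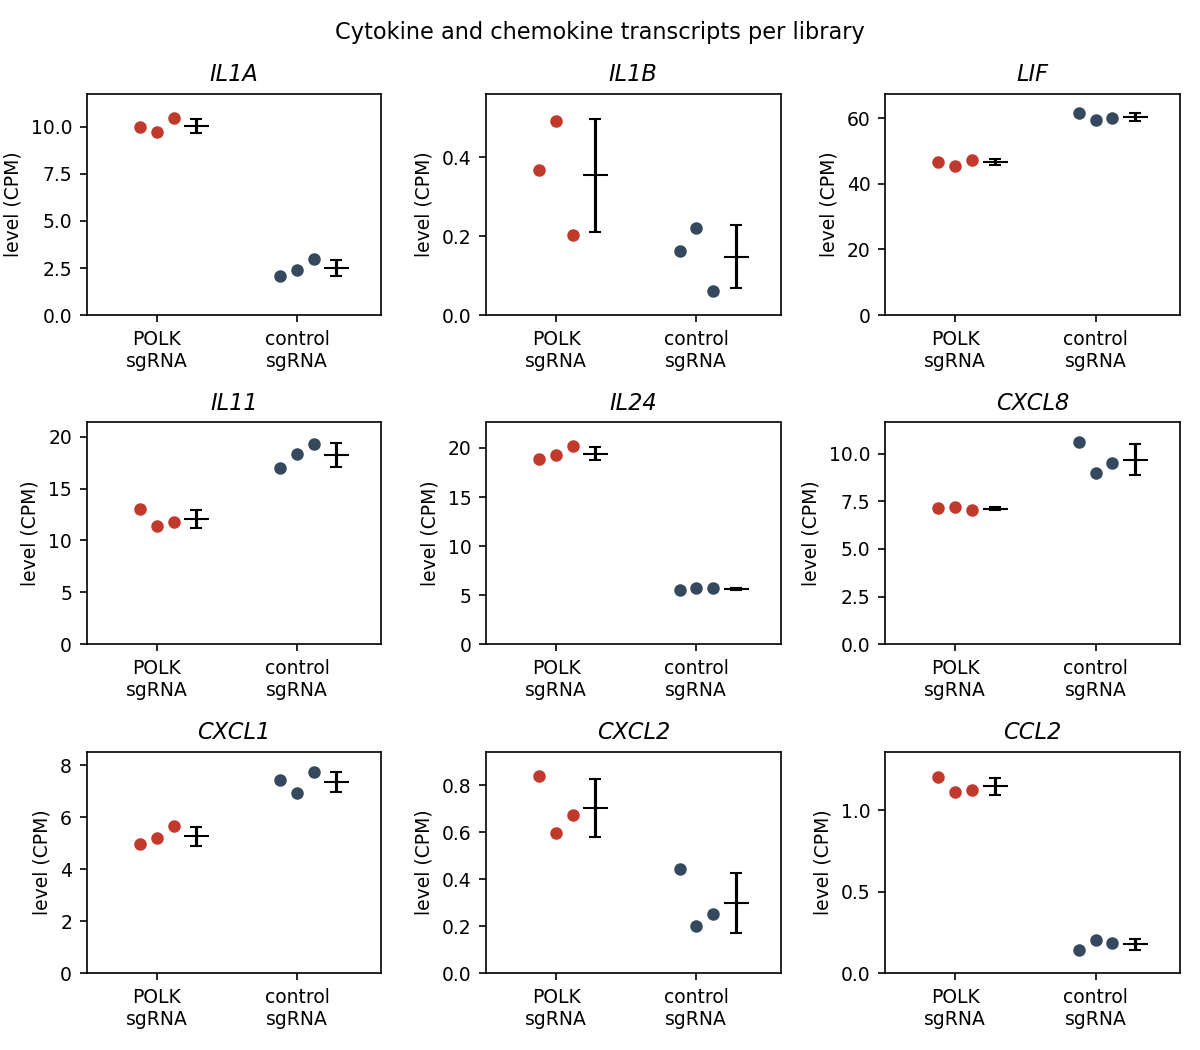
Levels in CPM (y axis, starting at 0 and scaled separately for each gene) of the 9 tested cytokine and chemokine genes in the 3 POLK sgRNA libraries and the 3 control sgRNA libraries; each point is a library, and the bar beside the points is the mean with its SD. The groups do not overlap for any of these genes except IL1B, whose lowest POLK sgRNA library (0.204 CPM) lies below the highest control library (0.22 CPM).

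Total counts were 46559658 to 56891905 in the POLK sgRNA libraries and 42852645 to 55003324 in the control libraries. Pairs of libraries within a group were further apart than counting noise alone gives (chi-square over its degrees of freedom 1.95 to 3.90), and pairs across the groups much further (60.6 to 73.1). POLK itself had 17.2 to 19.2 CPM in the POLK sgRNA libraries and 22.4 to 24.03 CPM in the control libraries. Its log2 fold change was −0.36 (SE 0.05, edgeR adjusted p = 7.9e-08), and the mRNA level is no measure of the share of edited alleles. The melanoma label was checked on 12 markers, whose summed level was 2353 to 2420 CPM with the POLK sgRNA and 2096 to 2111 CPM in controls. Of 11 tested, 6 were higher and 2, PRAME and TFAP2A, were lower. Among all genes tested 32.8% were higher and 31.6% lower, which is the background for each marker count given here. SOX10, a defining factor of this lineage, had 1155 CPM with the POLK sgRNA and 1060 CPM in controls, while the pigment genes PMEL, MLANA, TYR and DCT averaged under 1 CPM in both groups. Control library 1 stood apart in 2 of them, with 64 DCT and 19 TYR counts, against at most 2 counts of either in the other control libraries. The sum of 18 leukocyte markers was also higher, at 1800 to 1814 CPM with the POLK sgRNA and 1070 to 1133 CPM in controls. Nearly all of it was CD74 (1746 CPM with the POLK sgRNA, 1084 CPM in controls), and 3 of the 6 markers tested were higher and 1 lower. The myeloid marker LYZ rose by 2.53 on the log2 scale (19.7 CPM with the POLK sgRNA, 3.42 CPM in controls) and CD68 by 1.49 (39.3 CPM with the POLK sgRNA, 14.0 CPM in controls), while CD14 fell by 1.91 at under 0.4 CPM. LYZ lies among raised genes of chromosome 12, with a median of 0.56 over its 40 neighbours. The markers LUM, DCN, KRT8 and KRT18, given below, are on chromosome 12 too. There the 40 neighbours of the genes SOCS2 and DDIT3 had medians of 0.61 and 0.64. The neighbours of LUM, DCN, KRT8 and KRT18 were not summarised, and a shift shared with them was not tested. PTPRC, which all leukocytes express, was at 0.0311 CPM with the POLK sgRNA and 0.0269 CPM in controls, and CD3E and MS4A1 were under 0.02 CPM in both. The summed fibroblast, epithelial and endothelial markers were higher with the POLK sgRNA too. Fibroblast markers summed to 29.98 to 30.2 CPM with the POLK sgRNA and 20.4 to 20.7 CPM in controls, with 3 of 6 tested markers higher and 2 lower. LUM rose by 3.40 (4.5 CPM with the POLK sgRNA, 0.423 CPM in controls), DCN by 3.61 (1.11 CPM with the POLK sgRNA, 0.0902 CPM in controls) and PDGFRB by 0.65, PDGFRA fell by 0.79 and COL1A2 fell by 1.06, and COL3A1 was near 0 in both groups (0.0654 CPM with the POLK sgRNA, 0.0589 CPM in controls). Epithelial markers summed to 157 to 163 CPM with the POLK sgRNA and 105 to 107 CPM in controls, with 4 of 7 tested markers higher and 0 lower. Most of the sum was KRT18 (127 CPM with the POLK sgRNA, 82.9 CPM in controls, log2 fold change 0.61), KRT8, KRT14 and CLDN7 rose by 0.42, 0.91 and 1.84, and CDH1 was near 0 (0.0473 CPM with the POLK sgRNA, 0.0755 CPM in controls). Endothelial markers summed to 6.84 to 7.53 CPM with the POLK sgRNA and 4.34 to 5.58 CPM in controls, with 4 of 7 tested markers higher and 2 lower. PECAM1 rose by 1.26, VWF by 0.57, KDR by 0.95 (3.11 CPM with the POLK sgRNA, 1.64 CPM in controls) and TEK by 1.39, while CLDN5 fell by 1.06 and CDH5 fell by 3.35 (0.0343 CPM with the POLK sgRNA, 0.361 CPM in controls). Going by these values, DCN would not have passed the filter on the control libraries alone. Nor would CD14 and CDH5 have passed on the POLK sgRNA libraries alone. The calls of these genes were thus conditional on the group where each is high. For markers given without CPM this was not worked out. The part of the cell markers in the cytokine results was not tested. In RNA from bulk cultures, fewer cells that make a transcript and less of it per cell cannot be told apart.

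The promoters of the CXC chemokines are shown because these neighbouring genes moved in opposite directions while sharing the NF-kB motif that they are known for. Of the 10 genes, 8 had an entry in the RefSeq promoter table (GRCh38.p14), and LIF and CCL2 had none. The 250 bases before the annotated start are printed 5′ to 3′ on the strand of the gene, with capitals marking a match to the motif GGANTTTCC or to the longer kappa B consensus on either strand. They lie at chr4:73740319-73740568 (plus strand) for CXCL8, chr4:73869143-73869392 (plus strand) for CXCL1 and chr4:74099196-74099445 (minus strand) for CXCL2. The RefSeq starts of CXCL8 and CXCL2 lie downstream of the GENCODE gene starts given with their values, so part of each printed stretch is inside the GENCODE gene.
CXCL8: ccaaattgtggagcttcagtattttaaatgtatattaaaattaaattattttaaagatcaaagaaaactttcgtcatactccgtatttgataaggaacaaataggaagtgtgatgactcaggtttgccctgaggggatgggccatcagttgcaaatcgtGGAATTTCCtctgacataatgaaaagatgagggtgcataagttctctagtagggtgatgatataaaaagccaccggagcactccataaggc
CXCL1: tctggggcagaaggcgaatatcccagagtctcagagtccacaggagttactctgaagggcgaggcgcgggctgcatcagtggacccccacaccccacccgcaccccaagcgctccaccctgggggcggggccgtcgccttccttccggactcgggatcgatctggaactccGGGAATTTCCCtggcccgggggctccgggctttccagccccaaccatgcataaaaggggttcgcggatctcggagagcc
CXCL2: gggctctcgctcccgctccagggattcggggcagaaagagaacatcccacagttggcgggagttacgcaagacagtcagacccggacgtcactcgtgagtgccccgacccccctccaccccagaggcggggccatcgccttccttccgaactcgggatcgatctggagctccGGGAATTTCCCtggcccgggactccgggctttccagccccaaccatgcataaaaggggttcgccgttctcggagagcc

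The capitals stand 91 to 83 bases before the start in CXCL8, 79 to 69 bases before it in CXCL1 and 78 to 68 bases before it in CXCL2. In CXCL1 and CXCL2 the run GGGAATTTCC matches the kappa B consensus on the plus strand, the shorter motif lies inside it, and the consensus also matches on the minus strand 1 base further on. In an alignment of the CXCL1 and CXCL2 promoters 70.1% of 281 columns were identical, against 43.9% for CXCL1 with CXCL8. GGANTTTCC, searched on both strands, occurs in 1.47% of 27305 promoters of the same length and the kappa B consensus in 9.57%. It was also found 72 to 64 bases before the start of IL6, and in none of the promoters of IL1A, IL1B, IL11 and IL24. Among the tested genes with the motif, CXCL8 and CXCL1 fell and CXCL2 rose. The AP-1 motif TGANTCA, present in 6.6% of promoters, matched 137 to 131 bases before the start of CXCL8, 96 to 90 before that of IL11 and 12 to 6 before that of IL1A. The TATAAA motif, present in 11.1%, matched 31 to 26 bases before the CXCL8 start and 239 to 234 before that of IL1A, and TTNNGNAA, a C/EBP motif present in 33.6%, matched in IL1A, IL1B, IL6 and CXCL2. A match is a run of letters and does not show binding.

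The gene for interleukin-1 alpha, an alarm cytokine that is active as made and is held in the cell or at its surface, was about 4 times as abundant with the POLK sgRNA. IL1A (ENSG00000115008, chromosome 2, 112773915 to 112784590 on the minus strand, GRCh38) had 9.98, 9.75 and 10.5 CPM in the POLK sgRNA libraries and 2.10, 2.42 and 2.96 CPM in the control libraries. Every POLK sgRNA library stood at more than 3 times the highest control library. The log2 fold change was 2.01 (SE 0.09, edgeR adjusted p = 1.4e-19), and 2.21% of all tested genes changed as much or more in either direction. IL1A lies in a stretch of chromosome 2 where transcripts were lower: of its 40 nearest tested genes with at least 1 CPM, 31 fell and 3 rose, and the median of their log2 fold changes was −0.37, against 0.01 for all genes tested.

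IL1B, the other interleukin-1 ligand, which is made as a precursor that caspase-1 cleaves, was close to the limit of detection. It had 21, 23 and 10 counts in the POLK sgRNA libraries and 7, 12 and 3 counts in the control libraries. On the CPM scale these were 0.368, 0.492 and 0.204 with the POLK sgRNA and 0.163, 0.22 and 0.0625 in controls, so that POLK sgRNA library 3 fell within the control range. The log2 fold change was 1.21 (SE 0.41, edgeR adjusted p = 0.0099), and a ratio of summed counts of 2.34 has a counting interval of 1.40 to 4.03 (exact 95%, counting error only). The call was lost without control library 3 (log2 fold change 0.85, adjusted p = 0.078) and without POLK sgRNA library 2 (0.94, adjusted p = 0.079). IL1B (ENSG00000125538, chromosome 2, 112829751 to 112836903, minus strand) shares the lowered neighbourhood of IL1A. Within each library IL1A made up 96.4, 95.2 and 98.1% of the counts of both ligands with the POLK sgRNA and 92.8, 91.7 and 97.9% in controls, and the groups overlapped (difference 2.45 percentage points, exact two-sided permutation p = 0.3, where 0.1 is the smallest that 3 libraries against 3 allow).

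Of the gp130 cytokines, LIF and IL11 had the highest control levels per kilobase of exon among the members, and both fell. LIF, a cytokine known for keeping mouse embryonic stem cells undifferentiated, had 46.6, 45.5 and 47.3 CPM in the POLK sgRNA libraries and 61.7, 59.3 and 60.0 CPM in the control libraries. The groups were far apart relative to their spread, and LIF fell to 77.1% of its control level (log2 fold change −0.37, SE 0.03, edgeR adjusted p = 3.6e-12). IL11, a cytokine of fibrosis and bone turnover, had 13.0, 11.3 and 11.8 CPM with the POLK sgRNA and 17.0, 18.3 and 19.3 CPM in controls. It fell to 66.1% of the control level (log2 fold change −0.59, SE 0.06, edgeR adjusted p = 8.7e-11), with no overlap between the groups. LIF lies on chromosome 22 (ENSG00000128342, 30240447 to 30246851, minus strand) and IL11 on chromosome 19 (ENSG00000095752, 55364389 to 55370463, minus strand), and the median log2 fold changes of their 40 neighbours were −0.01 and 0.06. Antisense genes overlap 2.32% and 4.41% of the exon bases of LIF, and the kit named in the labels is known not to mark strand, so reads there cannot be told apart. IL6 (ENSG00000136244, chromosome 7, 22725884 to 22732002, plus strand), the name-giving cytokine of this family, had 0, 1 and 0 counts with the POLK sgRNA and 0, 0 and 1 count in controls. A floor of 3 counts would be 0.0527 to 0.0644 CPM in a POLK sgRNA library and 0.0545 to 0.07 CPM in a control library.

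IL24, an interleukin-10 family cytokine first described as a gene of differentiating melanoma cells, was among the members that moved furthest. It had 18.8, 19.3 and 20.2 CPM in the POLK sgRNA libraries and 5.53, 5.70 and 5.75 CPM in the control libraries. The SD within each group was under 1 CPM (0.69 with the POLK sgRNA, 0.11 in controls), and the log2 fold change was 1.78 (SE 0.06, edgeR adjusted p = 5.5e-23). IL24 (ENSG00000162892, chromosome 1, 206897443 to 206904139, plus strand) lies between MAPKAPK2 and FCMR, which had log2 fold changes of −0.09 (adjusted p = 0.0078) and −0.07 (adjusted p = 0.66), and its 40 neighbours had a median of 0.04.

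**Figure D2:**
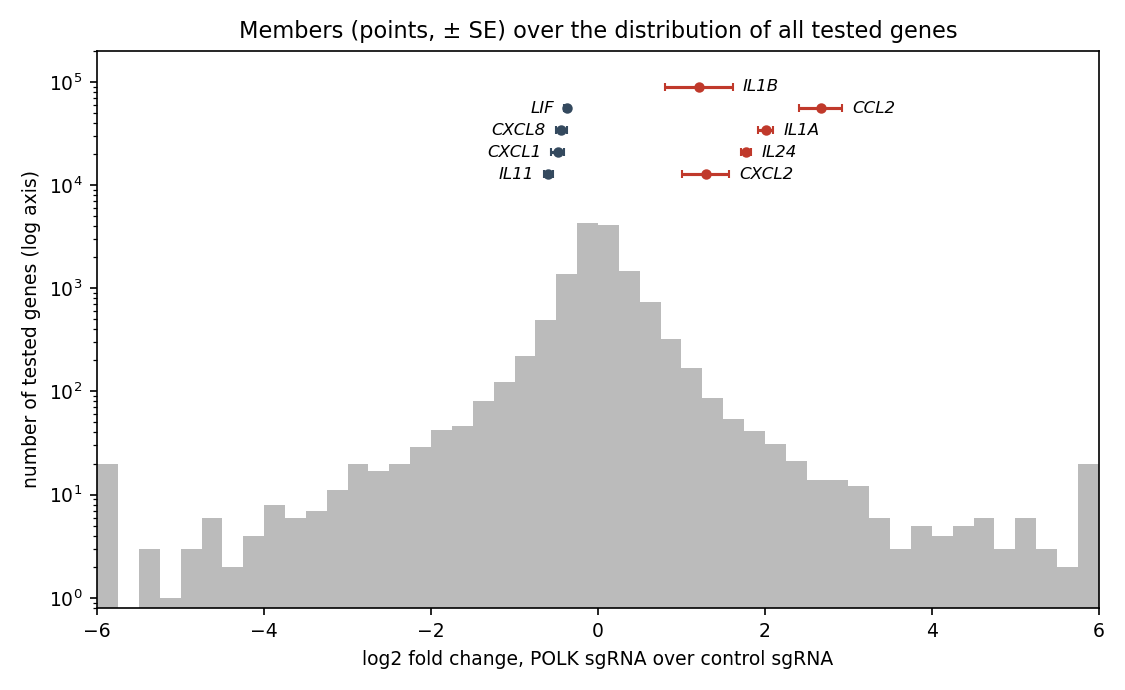
Log2 fold changes (x axis, POLK sgRNA over control sgRNA) of the 9 tested members with their standard errors, above the histogram of all 13930 tested genes (y axis, number of genes, log axis; the end bins also hold genes beyond the axis; the height of a point carries no value). CCL2, IL1A and IL24 lie in the upper tail with log2 fold changes of 2.67, 2.01 and 1.78, and LIF, CXCL8, CXCL1 and IL11 lie between −0.37 and −0.59.

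The neutrophil-attracting chemokines CXCL8 and CXCL1, which act through the receptor CXCR2, both fell. CXCL8 (interleukin-8; ENSG00000169429, chromosome 4, 73740506 to 73743716, plus strand) had 7.14, 7.20 and 7.02 CPM with the POLK sgRNA and 10.6, 8.97 and 9.50 CPM in controls. Its log2 fold change was −0.44 (SE 0.07, edgeR adjusted p = 2.0e-06). CXCL1 (ENSG00000163739, chromosome 4, 73869393 to 73871242, plus strand) had 4.95, 5.19 and 5.67 CPM with the POLK sgRNA and 7.42, 6.94 and 7.73 CPM in controls, a log2 fold change of −0.48 (SE 0.08, edgeR adjusted p = 2.4e-06). The groups did not overlap for either gene. The ratio of CXCL8 to CXCL1 counts was 1.36 ± 0.11 with the POLK sgRNA and 1.32 ± 0.10 in controls (SD, n = 3 each; exact two-sided permutation p = 0.7), so the ratio moved by less than the spread between libraries.

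CXCL2, a close relative of CXCL1 in the same cluster, moved the other way. It had 48, 28 and 33 counts in the POLK sgRNA libraries, or 0.84, 0.598 and 0.674 CPM, and 19, 11 and 12 counts in the control libraries, or 0.443, 0.201 and 0.25 CPM. The lowest POLK sgRNA library stood above the highest control library, and the log2 fold change was 1.29 (SE 0.28, edgeR adjusted p = 0.00015). The ratio of summed counts was 2.47, with a counting interval of 1.71 to 3.61. CXCL2 would not have passed the filter on the control libraries alone, and with no filter the log2 fold change was 1.30 (edgeR adjusted p = 1.8e-05). CXCL2 counts came to 0.135 ± 0.030 of CXCL1 counts with the POLK sgRNA and 0.0404 ± 0.0169 in controls (SD, n = 3 each; exact two-sided permutation p = 0.1, the smallest possible). CXCL3, the third of these closely related chemokines and not one of the 10 genes, had 1.31 ± 0.11 CPM with the POLK sgRNA and 0.642 ± 0.106 CPM in controls (SD, n = 3 each), a log2 fold change of 1.01 (SE 0.19, edgeR adjusted p = 2.1e-05). Thus the minus-strand genes CXCL3 (chromosome 4, 74036589 to 74038807) and CXCL2 (74097035 to 74099293) rose, while the plus-strand genes CXCL8 and CXCL1 fell. Sequence shared between these genes makes their values uncertain. Of the 50-base words in CXCL2 transcripts, 8.99% also occur in CXCL3 and 3.88% in CXCL1, and of those of CXCL1 4.81% occur in CXCL2. The summed level of CXCL8, CXCL1 and CXCL2, which share the receptor CXCR2, was 12.9, 13.0 and 13.4 CPM with the POLK sgRNA and 18.5, 16.1 and 17.5 CPM in controls (difference −4.25 CPM, exact two-sided permutation p = 0.1). The 4 comparisons made by permutation had Benjamini-Hochberg adjusted p-values of 0.2, 0.2, 0.4 and 0.7, and none of them could reach 0.05 with 3 libraries a group.

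CCL2, the monocyte chemokine, showed the widest relative difference of the 9 genes at a low level. It had 69, 52 and 55 counts in the POLK sgRNA libraries, or 1.21, 1.11 and 1.12 CPM, and 6, 11 and 9 counts in the control libraries, or 0.14, 0.201 and 0.187 CPM. Every POLK sgRNA library was more than 5 times the highest control library. The log2 fold change was 2.67 (SE 0.26, edgeR adjusted p = 5.5e-11), and the ratio of summed counts of 6.44 has a counting interval of 4.25 to 10.1. CCL2 passed the filter only through the POLK sgRNA libraries, where it is high, so that this test was conditional on the level there. With no filter the log2 fold change was 2.67 (edgeR adjusted p = 2.0e-18). Taking off the filter also lowered the edgeR adjusted p of IL1A, from 1.4e-19 to 1.8e-63. The smaller p-values of CCL2 and CXCL2 with no filter are therefore not read as stronger evidence. CCL2 (ENSG00000108691, chromosome 17, 34255218 to 34257203, plus strand) lies among genes with a median log2 fold change of 0.03.

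**Figure D3:**
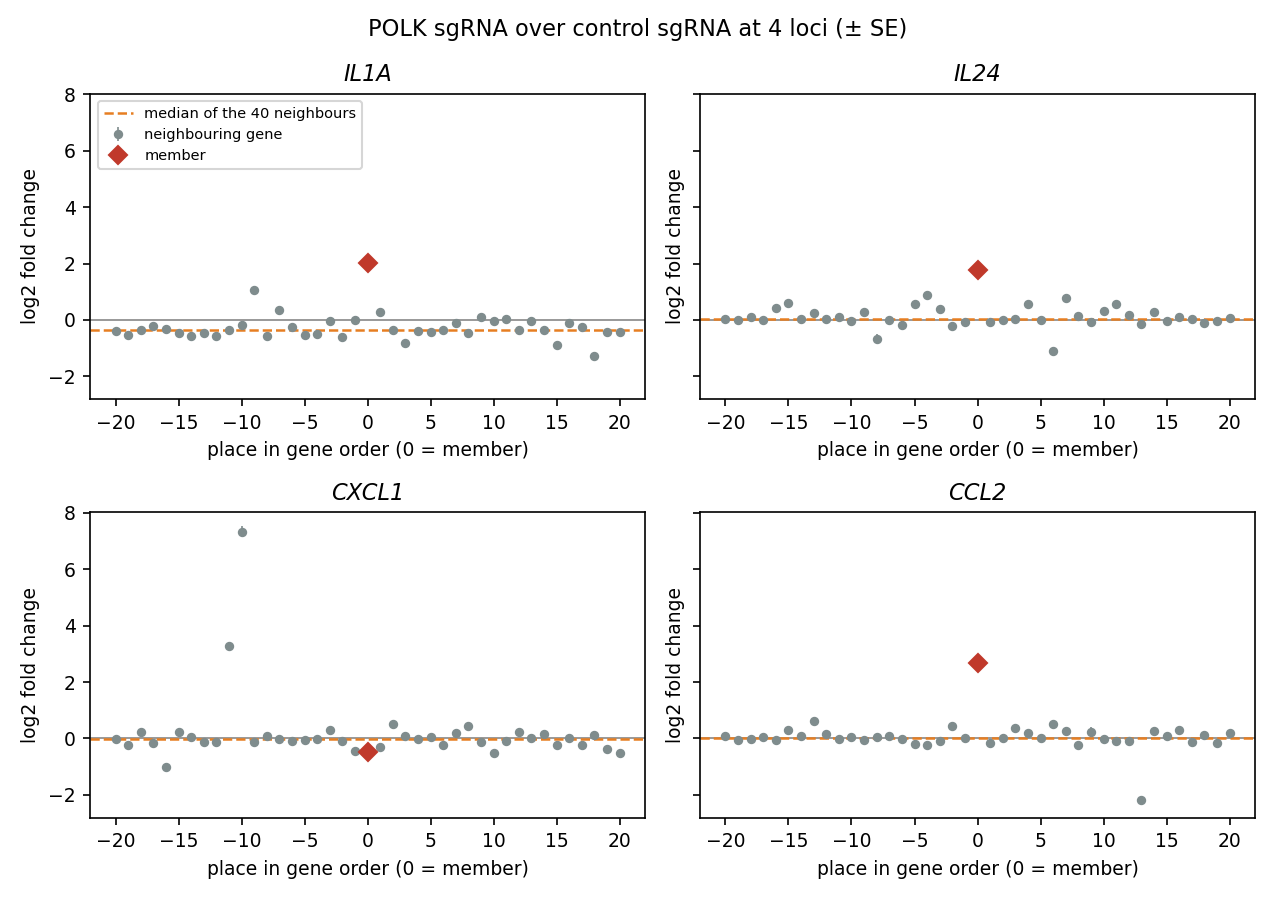
Log2 fold changes (y axis, POLK sgRNA over control sgRNA, ± SE) of IL1A, IL24, CXCL1 and CCL2 (diamonds at 0) and of the 20 nearest tested genes with at least 1 CPM on each side (x axis, place in gene order). IL1A stands at 2.01 above neighbours with a median of −0.37 (dashed line), IL24 and CCL2 stand above neighbours with medians of 0.04 and 0.03, and CXCL1 lies at −0.48 among neighbours with a median of −0.02, where FDCSP (7.33) and UGT2B7 (3.27) stand apart.

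Per kilobase of annotated exon, the order of the levels differed between the groups. With the POLK sgRNA the order was LIF at 11.7 ± 0.23 CPM per kilobase, IL24 at 9.82 ± 0.35, IL1A at 4.74 ± 0.17, IL11 at 4.51 ± 0.32, CXCL1 at 4.07 ± 0.28, CXCL8 at 3.13 ± 0.04, CCL2 at 0.578 ± 0.027, CXCL2 at 0.469 ± 0.082 and IL1B at 0.114 ± 0.047 (SD, n = 3). The ranges of IL1A and IL11, of IL11 and CXCL1, and of CCL2 and CXCL2 overlapped, so their order is not resolved. In controls it was LIF at 15.2 ± 0.31, IL11 at 6.82 ± 0.43, CXCL1 at 5.68 ± 0.31, CXCL8 at 4.26 ± 0.36, IL24 at 2.86 ± 0.06, IL1A at 1.17 ± 0.20, CXCL2 at 0.199 ± 0.085, CCL2 at 0.0888 ± 0.0162 and IL1B at 0.048 ± 0.0257, where only CCL2 and IL1B overlapped. IL24 thus had the second highest level with the POLK sgRNA and the fifth highest in controls. Among tested genes, LIF stood above 72.1% with the POLK sgRNA and 77.6% in controls, IL24 above 67.6% with the POLK sgRNA and 39.8% in controls, and IL1A above 49.8% with the POLK sgRNA and 26.2% in controls.

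For the members with at least 1 CPM, the genes with the most similar profile over the 6 libraries were found by the root mean square difference of centred log2 CPM. The nearest to IL1A were TENM1 (0.094) and FAIM2 (0.128), and to IL24 COL11A2 (0.039) and SEMA3G (0.053). For LIF they were PTK2 (0.016) and CFDP1 (0.017), and for IL11 EFNA4 (0.042) and SLC20A1 (0.048). For CXCL8 they were DLG1 (0.043) and RTN2 (0.045), and for CXCL1 SLC9A5 (0.038) and MXD4 (0.039). With 2 groups of 3 libraries, such likeness mostly says that a gene has a similar fold change.

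Of 17 genes for receptors of these cytokines and chemokines, 10 were tested, 6 fell and 3 rose, against 31.6% lower and 32.8% higher among all genes tested. With the filter set at a mean of 1 CPM, 4 fell and 2 rose. Their median (log2 fold change) was −0.18, against 0.01 for all genes tested. Both chains of the interleukin-1 receptor fell. IL1RAP, the accessory chain that completes the signalling receptor, had 34.1, 34.3 and 36.7 CPM with the POLK sgRNA and 59.0, 61.4 and 61.0 CPM in controls. Its log2 fold change was −0.79 (SE 0.04, edgeR adjusted p = 9.2e-20). IL1R1, the chain that binds the ligand, had 0.648, 0.556 and 0.898 CPM with the POLK sgRNA and 1.10, 1.41 and 1.21 CPM in controls, a log2 fold change of −0.83 (SE 0.20, edgeR adjusted p = 0.0004). Both lie among lowered genes, with medians of −0.49 over the 40 neighbours of IL1RAP on chromosome 3 and −0.34 over those of IL1R1 on chromosome 2.

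The receptor chains for LIF fell together with their ligand. LIFR had 37.8, 38.9 and 36.9 CPM with the POLK sgRNA and 62.3, 62.6 and 61.9 CPM in controls, a log2 fold change of −0.72 (SE 0.03, edgeR adjusted p = 2.2e-19). IL6ST, which encodes gp130, fell by 0.24 on the log2 scale (132 ± 0.81 CPM with the POLK sgRNA, 155 ± 1.8 CPM in controls) and OSMR, the chain for oncostatin M, by 0.13. IL6R, the chain for IL-6, rose by 0.22, at 46.8 ± 1.7 CPM with the POLK sgRNA and 40.2 ± 1.3 CPM in controls. The neighbours of IL6ST, LIFR, OSMR and IL6R had medians between −0.02 and 0.01. IL11RA, the chain for IL-11, had 4.65 ± 0.53 CPM with the POLK sgRNA and 4.21 ± 0.16 CPM in controls and did not pass (log2 fold change 0.13, edgeR adjusted p = 0.23).

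The chains that bind IL-24 were present at low levels. IL22RA1 rose by 0.54 on the log2 scale, with 5.85 ± 0.24 CPM in POLK sgRNA libraries and 4.03 ± 0.36 CPM in controls. IL20RB passed narrowly, with 1.03 ± 0.09 CPM in POLK sgRNA libraries and 0.759 ± 0.10 CPM in controls (log2 fold change 0.43, edgeR adjusted p = 0.0496), and kept the call in 4 of 13 alternatives. The chemokine receptor genes CXCR2 and CCR4 were nearly undetected. CXCR2 had 0.0648 CPM in POLK sgRNA libraries and 0.0789 CPM in controls. CCR4 had 0.0126 CPM in POLK sgRNA libraries and was listed at 0 in controls. ACKR1, a scavenger of chemokines, fell by 3.11 on the log2 scale at a low level, with 0.0373 CPM in POLK sgRNA libraries and 0.358 CPM in controls. It passed the filter only through the control libraries, where it is high. The listed receptors IL20RA, CXCR1 and CCR2 were not found by symbol among the genes counted, so no level can be given for them.

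A list of interleukin-1 processing genes, antagonists and relatives held 22 genes, of which 10 were tested. Of these 10, 6 rose and 1 fell, against 32.8% higher and 31.6% lower among all genes tested. The median of the 10 log2 fold changes was 0.34. The list mixes processing genes with antagonists, so the count is no measure of interleukin-1 processing. CASP4, an inflammatory caspase gene, had 23.2 ± 0.80 CPM with the POLK sgRNA and 14.2 ± 0.08 CPM in controls, a log2 fold change of 0.70 (SE 0.05). GSDMD, the pore former of pyroptosis through which interleukin-1 leaves the cell, rose by 0.39, at 84.5 ± 1.9 CPM with the POLK sgRNA and 64.6 ± 1.1 CPM in controls. CAPN2, a calpain gene whose enzyme class cleaves the interleukin-1 alpha precursor, rose by 0.34. It had 292 ± 5.0 CPM with the POLK sgRNA and 231 ± 2.2 CPM in controls. CAPN1, another calpain gene of the list, had 140 ± 2.5 CPM with the POLK sgRNA and 137 ± 1.2 CPM in controls. CAPN1 did not pass (log2 fold change 0.03, edgeR adjusted p = 0.26). CASP1, the gene for caspase-1, had 0.0619 CPM with the POLK sgRNA and 0.0364 CPM in controls, too low to be tested. IL18BP, one of the 6 that rose, kept its call in 6 of 13 alternatives. The gene that fell, NLRP1 (−0.15), was not called without control library 1, control library 3 or POLK sgRNA library 1, and the count that fell was then 0.

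Most other chemokines and cytokines were scarce. Of 30 other chemokines 7 were tested, 3 rose and 1 fell, against 32.8% higher and 31.6% lower among all genes tested. The log2 fold changes of the 7 chemokines had a median of 0.33. Those that rose were CXCL3, the membrane-bound CXCL16 (9.14 ± 0.20 CPM with the POLK sgRNA, 6.98 ± 0.52 CPM in controls, log2 fold change 0.39) and CCL20 (0.552 ± 0.149 CPM with the POLK sgRNA, 0.275 ± 0.005 CPM in controls, 1.02). With the filter set at a mean of 1 CPM, 1 of them was called higher, and with no filter 5 chemokines were. Of 26 other cytokines 13 were tested, 5 rose and 2 fell, against the same shares of all genes, with a median of 0.18. IL12A, a subunit of interleukin-12, rose by 0.84 (3.24 ± 0.23 CPM with the POLK sgRNA, 1.80 ± 0.13 CPM in controls) and IL16 by 1.02 (2.21 ± 0.12 CPM with the POLK sgRNA, 1.10 ± 0.17 CPM in controls). The epithelial cytokine gene TSLP fell by 2.00, with 0.172 ± 0.032 CPM in POLK sgRNA libraries and 0.693 ± 0.089 CPM in controls, and it too passed the filter only through the control libraries. Without control library 1, and likewise with DESeq2, 3 cytokines were called higher.

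**Figure D4:**
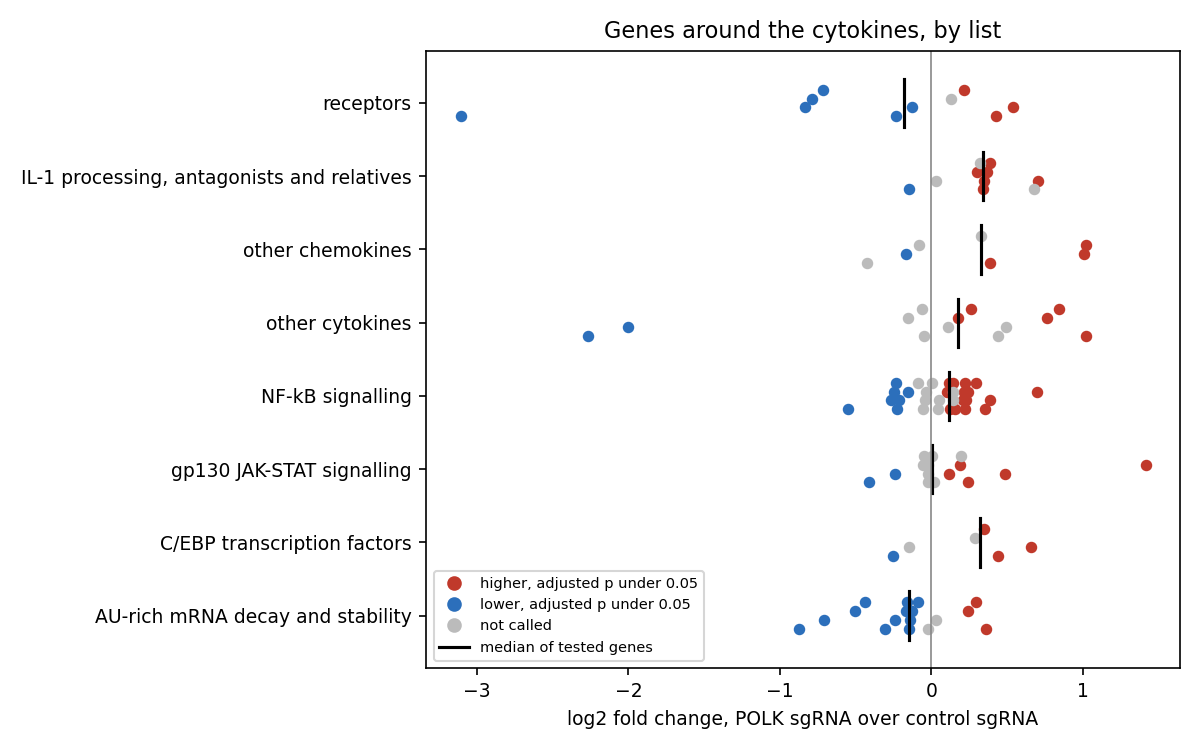
Log2 fold changes (x axis, POLK sgRNA over control sgRNA) of the tested genes in the 8 lists around the cytokines (rows), each point a gene, coloured by its call at an adjusted p of 0.05 in edgeR, with a black bar at the median of the list. The median is lowest for receptors (−0.18) and the AU-rich mRNA decay and stability list (−0.15). It is highest for the list of interleukin-1 processing genes, antagonists and relatives (0.34).

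Of 32 NF-kB signalling genes listed, 31 were tested, 15 rose and 7 fell, a share called near the 64.3% of all genes, and the median of the log2 fold changes was 0.12. With DESeq2 10 rose and 6 fell. The subunit genes NFKB1 and NFKB2 rose by 0.15 and 0.16, and RELA had 105 CPM with the POLK sgRNA and 104 CPM in controls (log2 fold change 0.01, edgeR adjusted p = 0.87). IKBKB, a kinase that releases NF-kB from its inhibitor, rose by 0.36, with 30.9 ± 0.55 CPM in POLK sgRNA libraries and 24.1 ± 0.45 CPM in controls. MAP3K14, the kinase of the non-canonical branch, fell by 0.55, with 15.8 ± 0.39 CPM in POLK sgRNA libraries and 23.1 ± 0.82 CPM in controls. IRAK1, a kinase that acts just below the interleukin-1 receptor, fell by 0.22, with 558 ± 6.2 CPM in POLK sgRNA libraries and 648 ± 3.9 CPM in controls. NFKBIA, an inhibitor gene that NF-kB itself induces, did not pass (log2 fold change 0.14, edgeR adjusted p = 0.11). It had 13.9, 12.8 and 12.8 CPM with the POLK sgRNA and 13.9, 11.3 and 10.8 CPM in controls. Other genes of the list went both ways, as NFKBIZ rose by 0.39 and TNFAIP3 by 0.21, while NFKBIB fell by 0.27 and NFKBIE by 0.15. TNFAIP3 and NFKBIE each kept the call in 8 of 13 alternatives.

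Of 15 genes that carry or limit the gp130 signal, 5 rose and 2 fell, and the median log2 fold change was 0.00. Among all genes tested, 32.8% were higher and 31.6% lower. STAT3 fell by 0.24, with 142 ± 3.3 CPM in POLK sgRNA libraries and 167 ± 3.2 CPM in controls. SOCS3, a feedback inhibitor that STAT3 induces, fell by 0.41, with 20.4 CPM in POLK sgRNA libraries and 27.1 CPM in controls. SOCS2 rose by 1.41 and the phosphatase gene PTPN11 by 0.48, and both lie among raised genes of chromosome 12, where the medians of their 40 neighbours were 0.61 and 0.65. A list of C/EBP genes also held CEBPZ, whose product shares the name but is not of that family. Of the 6 tested genes in this list 3 rose and 1 fell, with a median of 0.32, and 2 fell without POLK sgRNA library 3. The shares among all genes tested were 32.8% higher and 31.6% lower. CEBPG rose by 0.35, DDIT3 by 0.66 and CEBPZ fell by 0.25, and the neighbours of DDIT3, on chromosome 12, had a median of 0.64. CEBPB, a C/EBP factor known for acting on the IL6 promoter, had 78.8 CPM with the POLK sgRNA and 64.3 CPM in controls and did not pass (log2 fold change 0.29, edgeR adjusted p = 0.19).

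Of 17 genes that set the stability of AU-rich messenger RNAs, 12 fell and 3 rose, against 31.6% lower and 32.8% higher among all genes tested, and the median of their log2 fold changes was −0.15. The list takes in stabilising factors such as ELAVL1, which also fell, as well as decay factors, so the count is no measure of decay. CNOT1, the scaffold of the deadenylase complex, fell by 0.50, with 239 ± 5.2 CPM in POLK sgRNA libraries and 339 ± 2.8 CPM in controls. TIA1, a translational silencer of cytokine messages, fell by 0.71, with 29.8 ± 1.2 CPM in POLK sgRNA libraries and 48.8 ± 1.6 CPM in controls. RC3H2, a roquin family gene, fell by 0.44, with 61.2 ± 2.5 CPM in POLK sgRNA libraries and 83.1 ± 2.1 CPM in controls. The neighbours of CNOT1 and TIA1 were lower as well, with medians of −0.41 and −0.32, while those of RC3H2 had a median of −0.08. The genes that rose were ZFP36 (0.24), ZFP36L1 (0.30) and ZC3H12A (0.36), which encode factors that promote the decay of cytokine messages, while their relative ZFP36L2 fell by 0.87.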

How the data were processed

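Messenger RNA of A375 cells was sequenced in 6 libraries made with the TruSeq kit named in the labels, which is known not to keep strand. FastQC, Trimmomatic, STAR, DESeq2 and the build GRCh38 are named, per the submitters' processing notes; the counter and annotation are not stated there. Whole-number counts per gene, without normalization, were deposited by the authors, and columns were matched to samples by name.

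R 4.3.3 was used. Low genes were removed by filterByExpr (minimum count 10, minimum total 15), which left 13930, and libraries were scaled by TMM, also for CPM. The POLK sgRNA and control libraries entered edgeR 4.0.16's quasi-likelihood test, two-sided and without covariates. P-values were adjusted by Benjamini-Hochberg across the tested genes, with 0.05 as threshold. Each SE was derived from the log2 fold change and its F statistic. Positions and exon lengths come from GENCODE 29. The fit was tested on simulated data. Counting intervals are exact (Clopper-Pearson); they and the floor of 3 counts cover counting error only.

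The members and lists were chosen with earlier results of these data known. The naming rule covers all members, POLK, tested receptors and the 3 smallest p-values in each list. Other list genes (RELA, NFKB1, NFKB2, NFKBIA, NFKBIB, NFKBIE, NFKBIZ, TNFAIP3, SOCS3, CEBPB, CASP1, CAPN1, NLRP1, IL18BP, ELAVL1, ZFP36, ZFP36L1, ZFP36L2, ZC3H12A), the markers and the ratios to CXCL1 were picked after their values were seen. Alternatives were other scalings and filters, a replicate block, DESeq2 1.42.0, limma-voom (limma 3.58.1) and each library left out.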

Additional observations from a re-analysis of the deposited data

How the results depend on the processing

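Over 13 alternatives, 114 values of the 9 tested members were recomputed. All 114 kept their direction and 112 also their side of the threshold. The exceptions were IL1B without control library 3 and without POLK sgRNA library 2, and its log2 fold change ranged from 0.85 to 1.66 over the libraries left out, with adjusted p-values of 0.0014 to 0.079 over all its alternatives. The number of members higher was 4 to 5 and of members lower 4 on leaving out a library. With a mean of at least 1 CPM it was 2 higher, because IL1B, CXCL2 and CCL2 were then not tested. Other scalings moved the median log2 fold change of all genes by −0.0066 (size factors of DESeq2) and 0.0157 (library size alone). With the replicate number as a block, 4483 genes were higher and 4290 lower, against 4566 and 4396, and no member's call changed. Libraries with the same number did not deviate together (correlations of −0.036 to 0.013), so the number was not taken as a pairing. The IL1A share differed by 1.22 to 4.35 percentage points and the summed CXC chemokine level by −4.87 to −3.69 CPM on leaving out a library. Depth limits IL6, which could not be tested, and IL1B, CXCL2 and CCL2, which rest on 76, 151 and 202 counts in all. Among marker lists, leaving out control library 1 made 2 leukocyte markers lower instead of 1, fibroblast markers lower were 1 instead of 2 without control library 1, POLK sgRNA library 1 or POLK sgRNA library 2, and 1 epithelial marker was lower instead of 0 without POLK sgRNA library 1.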
